A study of Mus musculus with 20 samples.

Results

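The genes described here are 10 genes of the insulin-like growth factor (IGF) axis: the ligand Igf1, the receptors Igf1r and Insr, the receptor substrates Irs1 and Irs2, and the binding proteins Igfbp2, Igfbp3, Igfbp4, Igfbp5 and Igfbp7. They were chosen by name, and all 10 were found among the 45706 gene identifiers of the deposited count files. A further 62 genes of the IGF and insulin pathway were read beside them.

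IGF1 is a secreted growth factor that activates the IGF1 receptor, a tyrosine kinase closely related to the insulin receptor. Both receptors phosphorylate the docking proteins IRS1 and IRS2, which recruit PI3K and through Akt switch on mTORC1, the kinase complex that couples growth to nutrients and growth factors. The binding proteins hold IGFs outside the cell and set how much ligand is free. IGFBP7 binds IGFs only weakly, and IGFBP5 is known in the mammary gland for its induction during involution. Cathepsin D, the lysosomal protease encoded by Ctsd, can cleave binding proteins at acidic pH.

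RNA was sequenced from tumors and from cultured tumor cells of mice that carry the MMTV-PyMT transgene, a viral oncogene under a mammary promoter, on a C57BL/6N background. The 4 control tumors, labelled wild type, were competent for Ctsd, and the 4 MMTV-cre;Ctsd-/- tumors lacked it where Cre was driven by the MMTV promoter, that is in mammary epithelium, so the stroma kept the gene. All tumors were taken at 18 weeks of age. The cells came from 1 spontaneously immortalized line of a Ctsd+/+ mouse and 1 of an MMTV-cre;Ctsd-/- mouse, so that genotype and line cannot be told apart. Each line was held in medium with 1% fetal calf serum (FCS), a mild starvation. Samples called 1% FCS were taken after 10 days, and samples called 1% FCS LT after 12 weeks, with 3 samples in each of the 4 groups. By the labels, sample 1 of both 1% FCS groups shared 1 run code and sample 3 of both 1% FCS LT groups shared another. All other cell samples shared the most frequent code. Tumor libraries held 49725437 to 64291587 gene counts and cell libraries 33622831 to 40239762. In the tumors counts regardless of strand were used. In the cells counts on the strand opposite to the read were used, since 97.1% to 97.3% of stranded counts lay there, against 52.8% to 53.7% in the tumors.

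Ctsd itself was lower in every MMTV-cre;Ctsd-/- sample than in every control. It stood at 1781 to 2617 CPM (the count scaled to library size) in the control tumors and at 360.2 to 1295 CPM in the Ctsd-/- tumors. In cells it ranged from 1267 to 4199 CPM in Ctsd+/+ samples and from 114 to 192.4 CPM in Ctsd-/- samples.

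Markers of other cell types differed between groups. All 12 adipocyte markers passed the tumor test toward the Ctsd-/- group, with 5 of 8 endothelial, 2 of 12 fibroblast, 2 of 5 basal, 1 of 7 lymphocyte and 0 of 9 luminal, 8 macrophage and 6 muscle markers. Of all genes 8.44% passed it in that direction. The adipocyte markers' summed level ranged from 1069 to 7043 CPM in control tumors and from 5769 to 42090 CPM in Ctsd-/- tumors. Skeletal muscle markers were high in control tumor 4 (908 CPM summed) and Ctsd-/- tumor 1 (287.6 CPM) against 30.41 to 85.7 CPM in the other 6 tumors. Among the cells, the Ctsd+/+ samples in 1% FCS stood apart. Their 9 luminal epithelial markers summed to 1097 to 2237 CPM, against 6952 to 14800 CPM in the other 9 samples, and their 12 fibroblast markers to 2709 to 6447 CPM, against 3.324 to 246.9 CPM. Of these fibroblast markers Col5a1 (1021 to 3000 CPM), Col1a1 (530.7 to 2320 CPM) and Pdgfrb (159.7 to 693.6 CPM) were the highest. Col6a2 (15.21 to 304.6 CPM), Col3a1 (18.41 to 264.8 CPM) and Pdgfra (10.94 to 74.27 CPM) followed, Col1a2, Dcn and Fap stayed at or under 3.69 CPM, and Lum, Dpt and Thy1 had 0 counts. All 7 fibroblast markers that could be tested were called lower in Ctsd-/- cells in 1% FCS, as 14.6% of all genes were. This count is a description, because markers could enter the test through the Ctsd+/+ samples in 1% FCS alone. Col3a1 did so, with at most 0.1775 CPM in all other cell samples. The 5 basal epithelial markers summed to 32.87 to 47.63 CPM in the Ctsd+/+ samples in 1% FCS and to 18.74 to 76.82 CPM in those in 1% FCS LT. In Ctsd-/- cells they summed to 5.718 to 8.366 CPM in 1% FCS and to 3.967 to 5.578 CPM in 1% FCS LT. Krt14 held most of these sums, with 32.43 to 45.34 CPM in Ctsd+/+ and 4.988 to 7.981 CPM in Ctsd-/- cells in 1% FCS. Krt5 went the other way, at 0.02617 to 0.1221 CPM and 0.2365 to 0.5597 CPM. Of the 3 basal markers tested in 1% FCS, 1 was called higher and 2 lower in Ctsd-/- cells, against 25.0% of all genes called. Of the 12 adipocyte markers, 6 had 0 counts in the Ctsd+/+ samples in 1% FCS (Adipoq, Plin1, Cidec, Lep, Cfd and Car3). Pnpla2 (46.27 to 56.63 CPM), Lipe (7.481 to 9.655 CPM) and Lpl (0.9683 to 29.42 CPM) were detected there, and Plin4, Retn and Fabp4 stayed at or under 0.2399 CPM. In Ctsd-/- cells 7 of the 12 had 0 counts in 1% FCS and 5 in 1% FCS LT, and in Ctsd+/+ cells in 1% FCS LT 2 had 0 counts. The part of cell makeup in the results was not tested in the cells, and in bulk RNA fewer cells of a type and less RNA per cell cannot be told apart.

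All 10 genes passed the filter on low counts in tumors and in cells. In cells, however, Igf1 and Igfbp2 passed through the Ctsd+/+ samples in 1% FCS alone, and Igfbp3 and Igfbp5 through Ctsd+/+ samples of both times alone. Igfbp5 was at or under 1.166 CPM in 11 of the 12 samples. The plot of levels shows every sample.

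**Figure D1:**
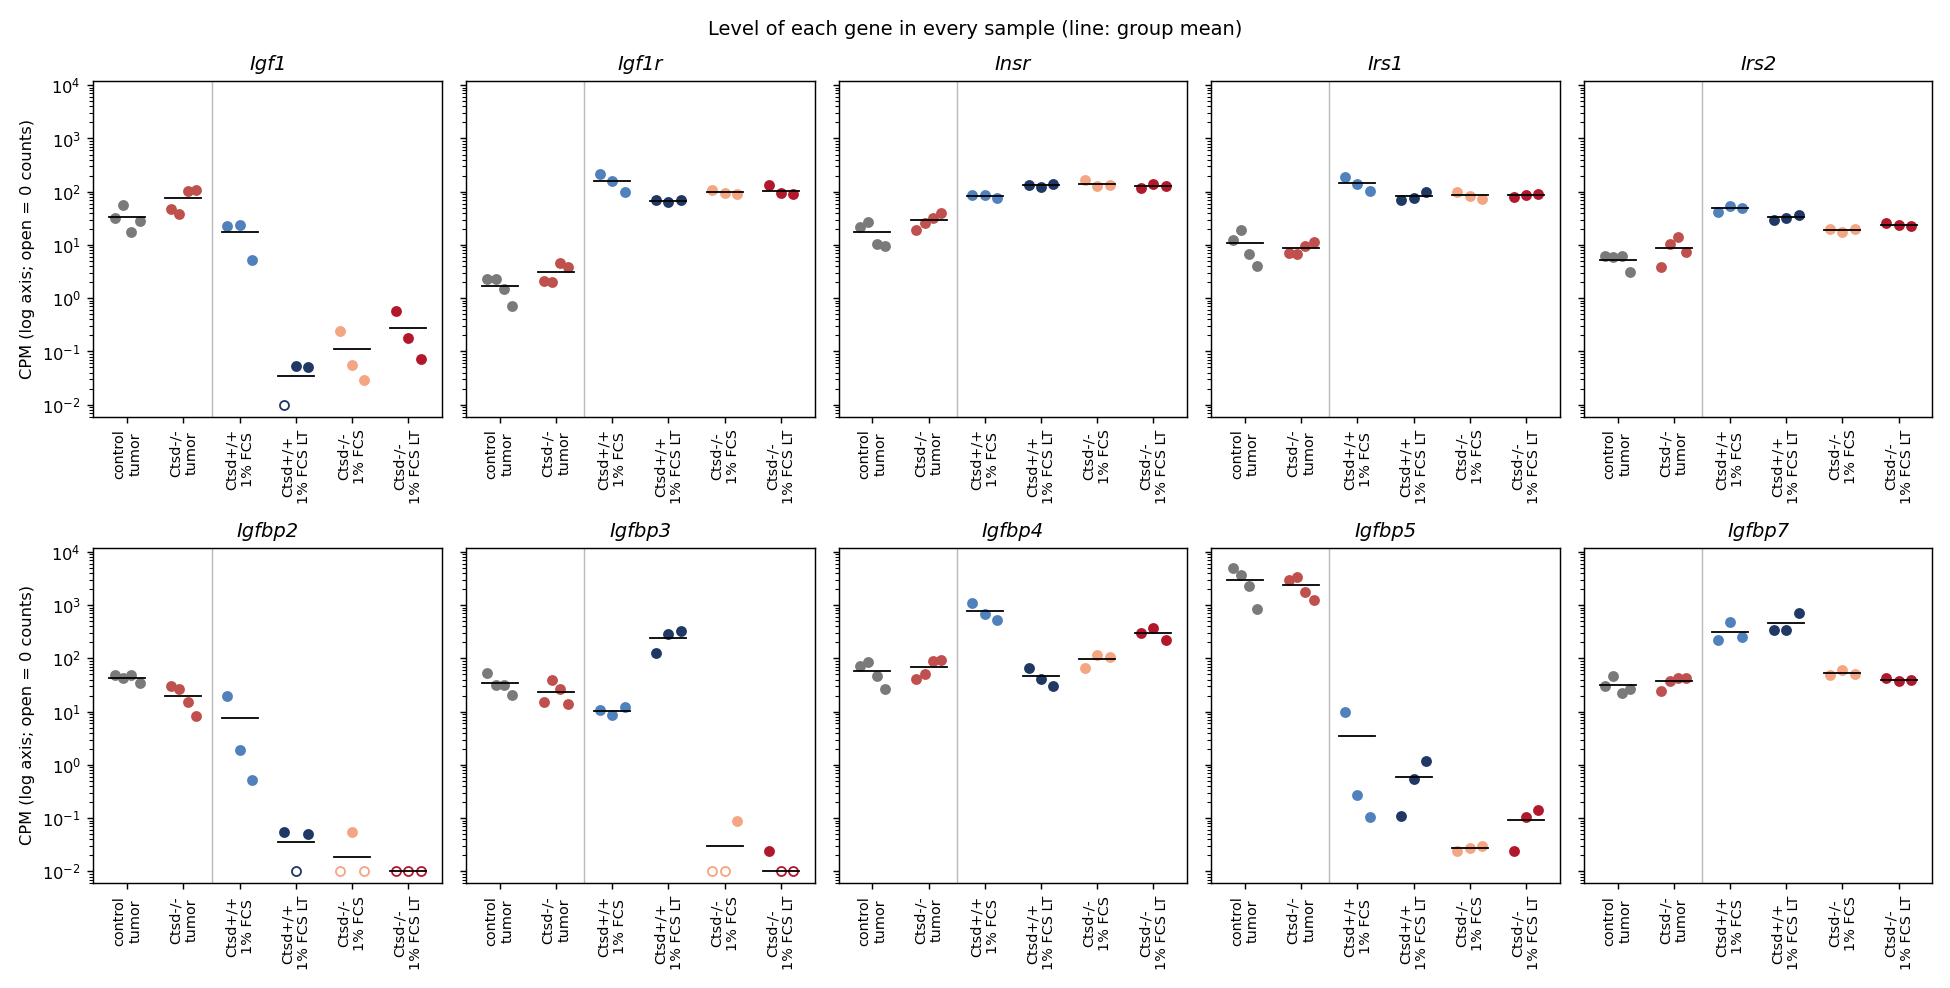
Level of each of the 10 genes in CPM (log axis) by group, with 1 point per sample, a line at the group mean and open points for samples with 0 counts, which are drawn at 0.01. Igfbp3 lay between 8.794 and 331 CPM in Ctsd+/+ cells and at or under 0.08868 CPM in Ctsd-/- cells, and Igf1 was above 5 CPM in cells only in the Ctsd+/+ samples in 1% FCS.

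The binding proteins Igfbp3, Igfbp4 and Igfbp7 are shown with their upstream sequence, because they were the members whose genotype difference was called at both culture times. The windows are the 250 bases before the RefSeq start site (GRCm38.p6), read 5′ to 3′ on the gene's strand, and none overlapped an annotated exon. Capitals mark matches on either strand to any of 5 motifs. The cAMP response element was searched as TGACGTCA and the FoxO site as GTAAACA. The E-box was searched as CACGTG. The TATA box was searched as TATAAA. The GC box was searched as GGGCGG.
Igfbp3, chr11:7213924-7214173, - strand: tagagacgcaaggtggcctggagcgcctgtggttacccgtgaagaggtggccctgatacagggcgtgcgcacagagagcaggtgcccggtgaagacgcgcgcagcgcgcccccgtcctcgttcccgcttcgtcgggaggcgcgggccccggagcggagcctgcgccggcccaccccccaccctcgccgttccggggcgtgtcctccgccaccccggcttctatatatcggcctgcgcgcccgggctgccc
Igfbp4, chr11:99040994-99041243, + strand: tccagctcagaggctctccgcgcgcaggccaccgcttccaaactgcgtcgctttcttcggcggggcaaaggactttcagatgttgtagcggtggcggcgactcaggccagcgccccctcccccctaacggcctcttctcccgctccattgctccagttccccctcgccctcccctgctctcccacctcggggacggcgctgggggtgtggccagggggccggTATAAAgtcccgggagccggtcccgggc
Igfbp7, chr5:77408046-77408295, - strand: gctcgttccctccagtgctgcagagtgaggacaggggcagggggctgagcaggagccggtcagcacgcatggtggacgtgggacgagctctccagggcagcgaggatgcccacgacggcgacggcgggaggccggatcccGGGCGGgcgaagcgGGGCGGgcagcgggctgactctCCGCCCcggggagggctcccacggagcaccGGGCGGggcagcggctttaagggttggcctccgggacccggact
All 3 windows were rich in G and C (73.2%, 69.2% and 74.0%), against a median of 52.4% over 32851 windows of the same length. The Igfbp4 window held a TATA box whose first base lay at -28, and 12.4% of all windows held one. The Igfbp7 window held 4 GC boxes, and 32.7% of all windows held at least 1. The Igfbp3 window held none of the 5 motifs. No window of these 3 held the cAMP response element, the FoxO site or the E-box, which were in 1.55%, 3.17% and 6.02% of all windows. The table held windows for 9 of the 10 genes, all but Insr.

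In the tumors the comparison asks what loss of epithelial Ctsd does to the transcripts of this axis. Igf1, Igf1r, Insr and Irs2 were higher and Igfbp2 was lower in Ctsd-/- tumors at the uncorrected p of 0.1 that the study used for tumors. In edgeR's quasi-likelihood test over 18617 genes 0 of the 10 had an adjusted p under 0.05 and 2 had an unadjusted p under 0.05, and 1 gene of all 18617 passed the adjusted threshold. The rule called 5 of the 10 genes (4 higher, 1 lower), against 16.7% of all genes, with 8.44% of all genes called higher. Only Igfbp2 had groups that did not overlap, as 4.15% of all genes did. The median log2 fold change was 0.22 over the 10 genes and 0.00 over all genes.

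Igf1 (chr10:87858265-87937042, GRCm38, the ligand) measured 31.89, 56.83, 17.54 and 28.49 CPM in the control tumors and 47.89, 38.11, 103.9 and 109.1 CPM in the Ctsd-/- tumors. Ctsd-/- tumors 3 and 4 were the 2 highest, and the other 2 lay within the range of the controls. The log2 fold change was 1.15 ± 0.43 (SE; edgeR, unadjusted p = 0.0221, adjusted p = 0.544). Insr (chr8:3122061-3279617, the insulin receptor) ran from 9.461 to 26.91 CPM in controls and from 19.23 to 40.11 CPM in Ctsd-/- tumors, again with tumors 3 and 4 highest, at a log2 fold change of 0.77 ± 0.37 (SE; edgeR, unadjusted p = 0.0625, adjusted p = 0.569). Igf1r (chr7:67952827-68233668, the IGF1 receptor) was low in all tumors, at 0.7102 to 2.3 CPM in controls and 2.06 to 4.613 CPM in Ctsd-/- tumors, with a log2 fold change of 0.90 ± 0.45 (SE; edgeR, unadjusted p = 0.0725, adjusted p = 0.578).

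Irs2 (chr8:10984681-11008458, a receptor substrate) measured 6.091, 5.959, 6.117 and 3.069 CPM in controls and 3.843, 10.21, 14.03 and 7.5 CPM in Ctsd-/- tumors. The groups overlapped through Ctsd-/- tumor 1, and the log2 fold change was 0.74 ± 0.40 (SE; edgeR, unadjusted p = 0.0918, adjusted p = 0.592). This call was lost in 6 of the 8 fits that each left out a tumor, all but those without Ctsd-/- tumor 1 or 4, and also by limma-voom (unadjusted p = 0.174). Igfbp2 (chr1:72824503-72852474, a binding protein of luminal and other epithelia) measured 47.84, 42.21, 48.09 and 34.52 CPM in controls and 30.27, 26.23, 15.14 and 8.313 CPM in Ctsd-/- tumors. Every control lay above every Ctsd-/- tumor, and the log2 fold change was -1.11 ± 0.36 (SE; edgeR, unadjusted p = 0.0109, adjusted p = 0.494).

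The other 5 genes were not called in the tumors. Igfbp5 (chr1:72857932-72874884) was by far the most abundant binding protein transcript, at 845.9 to 5088 CPM in controls and 1244 to 3412 CPM in Ctsd-/- tumors, and its log2 fold change was -0.34 ± 0.51 (SE). Igfbp3 (chr11:7206086-7213923) ran from 20.72 to 54.23 CPM in controls and from 13.79 to 39.73 CPM in Ctsd-/- tumors, a log2 fold change of -0.53 ± 0.39 (SE). Igfbp4 (chr11:99041244-99054392), Igfbp7 (chr5:77349240-77408041) and Irs1 (chr1:82233101-82291416) had log2 fold changes of 0.24 ± 0.39, 0.21 ± 0.27 and -0.29 ± 0.44 (SE). Irs1 was undercounted in the tumors. Of its exon length 30.9% lies under exons of Gm9747 on the opposite strand, and the count regardless of strand held 19.7% of its counts on both strands. For Igfbp7, which shares 7% of its exon length with Polr2b, the share was 75.5%. For 7 of the other 8 genes it was 100%, and for Irs2 99.3%.

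Ctsd-/- tumors 3 and 4 had the highest adipocyte marker sums (22820 and 42090 CPM) and also the highest Igf1, Insr and Igf1r and the lowest Igfbp2. Irs2 did not follow this order, with Ctsd-/- tumor 2 above tumor 4, and control tumor 4 had the highest adipocyte sum of the controls but the lowest Insr and Igf1r. Endothelial marker sums (384.1 and 344.7 CPM against 75.26 to 148.9 CPM in the other 6) and basal epithelial sums (882.9 and 549.3 CPM against 150.4 to 454.4 CPM) were highest in the same 2 tumors, and their part was not tested. With the adipocyte marker level as a covariate, 0 of the 10 genes were called. Of all 18617 genes 1215 were called with it, against 3112 without. The log2 fold change was -0.31 ± 0.39 for Igf1, 0.22 ± 0.75 for Igf1r, 0.10 ± 0.53 for Insr and -0.18 ± 0.37 for Igfbp2 (SE). That of Irs2 was 0.76 ± 0.68 (SE). All 12 markers were themselves called between the genotypes, so covariate and genotype cannot be fully told apart. Without the 2 tumors that held muscle markers, an alternative chosen after the data were seen, 5 genes were called. Leaving out control tumor 3 or Ctsd-/- tumor 3 left 2 genes called, and leaving out control tumor 4 or Ctsd-/- tumor 4 left 3. Control and Ctsd-/- tumors also carried different run codes in their labels, so code and genotype cannot be told apart.

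**Figure D2:**
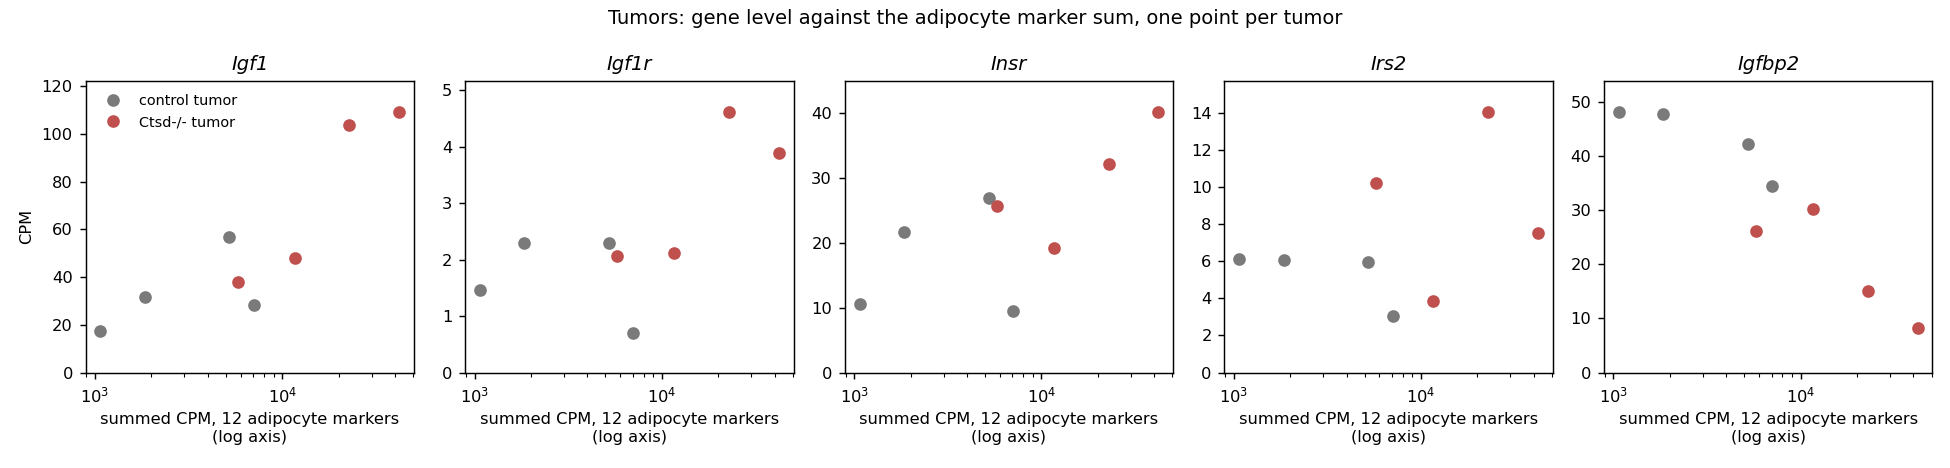
Level in CPM of the 5 genes called in tumors against the summed CPM of 12 adipocyte markers (log axis), with 1 point per tumor and color for genotype. The 2 tumors with the highest adipocyte sums, both Ctsd-/-, had the highest Igf1, Insr and Igf1r and the lowest Igfbp2 (15.14 and 8.313 CPM).

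In the cells after 10 days in 1% FCS the comparison asks how the Ctsd-/- line differs from the Ctsd+/+ line under mild starvation. The ligand Igf1, the substrate Irs2 and all 5 binding proteins were lower in the Ctsd-/- cells, and no member was called higher. A gene was called in cells at an adjusted p under 0.05 (edgeR quasi-likelihood test, Benjamini-Hochberg over 15178 genes) and an absolute log2 fold change above 1. The rule called 7 of the 10 genes, all lower, against 25.0% of all genes called and 14.6% called lower. All 10 had an adjusted p under 0.05, as 48.5% of all genes had, and 9 of 10 had groups without overlap, as 55.2% of all genes had. The median log2 fold change was -2.78 over the 10 genes and 0.00 over all genes. These counts are a description, because Igf1 and Igfbp2 entered the test only through the group in which they were high, which fixed their direction. Igfbp3 and Igfbp5 also entered through Ctsd+/+ samples alone, those of both times. With at least 10 counts required in every sample, 6 of the 10 genes were tested. Of these, 3 were called, Irs2, Igfbp4 and Igfbp7, against 2165 of all 12171 genes then tested. Each of these values is against the Ctsd+/+ samples whose luminal epithelial markers were low.

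After 12 weeks the same comparison asks whether the difference persisted. Igfbp3 and Igfbp7 were again lower in the Ctsd-/- cells, Igfbp4 was higher, and Igf1 was near 0 in both lines. The rule called 3 of the 10 genes (1 higher, 2 lower), against 19.4% of all genes. This count is a description, because Igfbp3 entered the test through Ctsd+/+ samples alone, which fixed its direction. An adjusted p under 0.05 was reached by 5 (39.6% of all genes), and 6 had groups without overlap (54.2% of all genes). The median log2 fold change was -0.25 over the 10 genes and 0.01 over all genes.

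Within the Ctsd-/- line, time in culture changed 1 of the 10 genes, Igfbp4, which rose, against 1.48% of all genes called. The groups were apart for 3 of 10 genes, as for 25.4% of all genes, and the median log2 fold change was 0.05. Within the Ctsd+/+ line 5 of the 10 were called (1 higher, 4 lower), against 23.4% of all genes called and 12.3% called lower. Igf1 and Igfbp2 are again among the 4. With at least 10 counts in every sample, Igf1r and Igfbp4 were called of 6 tested, against 2099 of all 12171 genes. There 8 genes reached an adjusted p under 0.05 (46.4% of all genes), 8 had groups without overlap (53.7% of all genes), and the median log2 fold change was -1.01. The difference between the 2 time courses was called for 3 genes, Igf1, Igf1r and Igfbp4, all positive, against 19.1% of all genes called and 11.0% called positive. This count is a description, because Igf1 entered the test only through the Ctsd+/+ samples in 1% FCS, which fixed its direction. An adjusted p under 0.05 for this interaction was reached by 6 genes, against 30.3% of all genes. Within the 8 cell samples of 1 run code the counts were 6, 3, 1, 4 and 4 for 1% FCS, 1% FCS LT, time in Ctsd-/- cells, time in Ctsd+/+ cells and the interaction. The shares of all genes given above belong to the fit of all cell samples, so these counts cannot be set against them. The comparisons share samples with each other, so their values are given side by side and not as separate evidence.

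**Figure D3:**
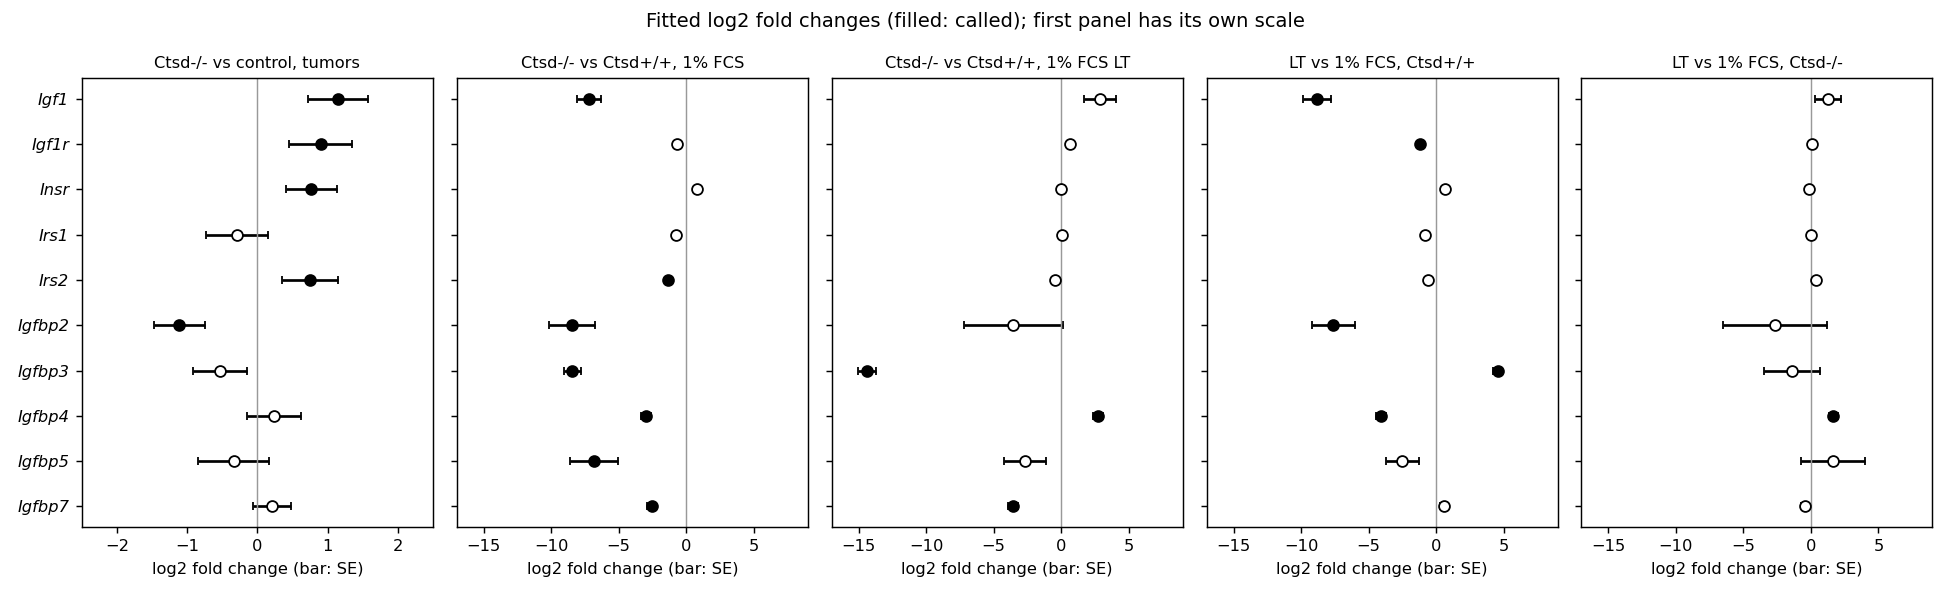
Fitted log2 fold changes of the 10 genes with their standard errors in 5 comparisons, filled where the gene was called, with a narrower axis for the tumors. In Ctsd-/- cells over time only Igfbp4 (1.65) is filled, whereas over time in Ctsd+/+ cells Igf1, Igf1r, Igfbp2 and Igfbp4 are filled on the left and Igfbp3 (4.55) on the right.

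Igf1 measured 23.09, 23.82 and 5.313 CPM in the 3 Ctsd+/+ samples in 1% FCS. It measured 0.2433, 0.05477 and 0.02956 CPM in Ctsd-/- samples in 1% FCS (10, 2 and 1 counts), 0, 0.05328 and 0.05071 CPM in Ctsd+/+ samples in 1% FCS LT (0, 2 and 2 counts) and 0.5746, 0.1802 and 0.07257 CPM in Ctsd-/- samples in 1% FCS LT (24, 7 and 3 counts). The first group lay above all others without overlap. The fitted log2 fold change of Ctsd-/- against Ctsd+/+ cells at 10 days was -7.21 ± 0.89 (SE), given as a description since the gene entered the test through the Ctsd+/+ samples. Between the Ctsd+/+ groups 1753 counts stood against 4, a ratio of 479 (95% exact counting interval 187 to 1760). In 1% FCS LT 34 counts in Ctsd-/- cells stood against 4 in Ctsd+/+ cells, a ratio of 7.95 (counting interval 2.83 to 30.8), and the test gave an adjusted p of 0.0768. That difference was past the threshold when Ctsd+/+ sample 3 in 1% FCS (adjusted p = 0.0393) or Ctsd-/- sample 3 in 1% FCS LT (adjusted p = 0.048) was left out, and also by DESeq2 (adjusted p = 0.0386), without the filter on low counts (0.0294) and with a replicate block (0.0271). The fibroblast marker sum had the same order as Igf1 in this group, at 246.9, 93.29 and 21.14 CPM in the same 3 Ctsd-/- samples. Col5a1, Pdgfrb and Col6a2 held most of it, and Col3a1, Dcn, Lum, Dpt and Thy1 were at or near 0. The part of cell makeup was not tested.

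The receptors moved in opposite directions in Ctsd+/+ cells. Igf1r measured 218.1, 156.2 and 99.71 CPM in 1% FCS and 70.01, 64.92 and 69.62 CPM in 1% FCS LT in these cells, and all 3 later samples were lower. The log2 fold change over time was -1.21 ± 0.23 (SE, adjusted p = 0.00129). It was -0.91 without Ctsd+/+ sample 1 in 1% FCS, and -0.92 within the 8 samples of the most frequent run code. Both values are below the fold that a call needs. In Ctsd-/- cells Igf1r stayed between 89.6 and 131.9 CPM at both times (log2 fold change 0.10 ± 0.23 SE), and the time courses differed (interaction 1.31 ± 0.33 SE, adjusted p = 0.0105).

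Insr measured 87.14, 86.81 and 76.18 CPM in Ctsd+/+ cells in 1% FCS and lay between 117.5 and 164 CPM in the other 9 samples, with no overlap. The log2 difference was 0.77 ± 0.11 (SE, adjusted p = 0.00018) against Ctsd-/- cells in 1% FCS and 0.67 ± 0.11 (SE, adjusted p = 0.00054) against Ctsd+/+ cells in 1% FCS LT, both under the fold a call needs. In 1% FCS LT the genotypes differed by -0.04 ± 0.11 (SE, adjusted p = 0.789). Per kilobase of exon, the level of Insr over that of Igf1r was 0.4879, 0.6787 and 0.9333 in Ctsd+/+ cells in 1% FCS and 2.308, 2.345 and 2.469 in 1% FCS LT. In Ctsd-/- cells the ratio lay between 1.609 and 1.857 in 1% FCS and between 1.088 and 1.784 in 1% FCS LT, ranges that overlap. Thus the Ctsd+/+ line had the lowest ratios at 10 days and the highest at 12 weeks.

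Irs2 was the substrate that differed between the lines at both times. It measured 42.34, 53.8 and 50.01 CPM in Ctsd+/+ cells against 20.12, 17.17 and 19.6 CPM in Ctsd-/- cells in 1% FCS, and 29.72, 32.05 and 37.14 CPM against 26.1, 23.74 and 22.76 CPM in 1% FCS LT. The Ctsd+/+ samples were above the Ctsd-/- samples at both times. The log2 fold change was -1.36 ± 0.13 (SE, adjusted p = 6.31e-06), and -0.45 ± 0.13 (SE, adjusted p = 0.0146) in 1% FCS LT, which is under the fold a call needs. The interaction was 0.91 ± 0.18 (SE, adjusted p = 0.00254). Irs1 measured 187.7, 138.4 and 103.5 CPM in Ctsd+/+ cells in 1% FCS and 70.98 to 98.82 CPM in the other 9 samples. After 10 days the Ctsd-/- cells stood lower by a log2 fold change of -0.75 ± 0.20 (SE, adjusted p = 0.00826), under the fold a call needs. After 12 weeks the value was 0.06 ± 0.20 (SE, adjusted p = 0.824). The interaction of 0.81 ± 0.28 (SE, adjusted p = 0.045) had an adjusted p above 0.05 in 9 of 12 fits that each left out a sample, and was 0.57 without Ctsd+/+ sample 1 in 1% FCS.

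**Figure D4:**
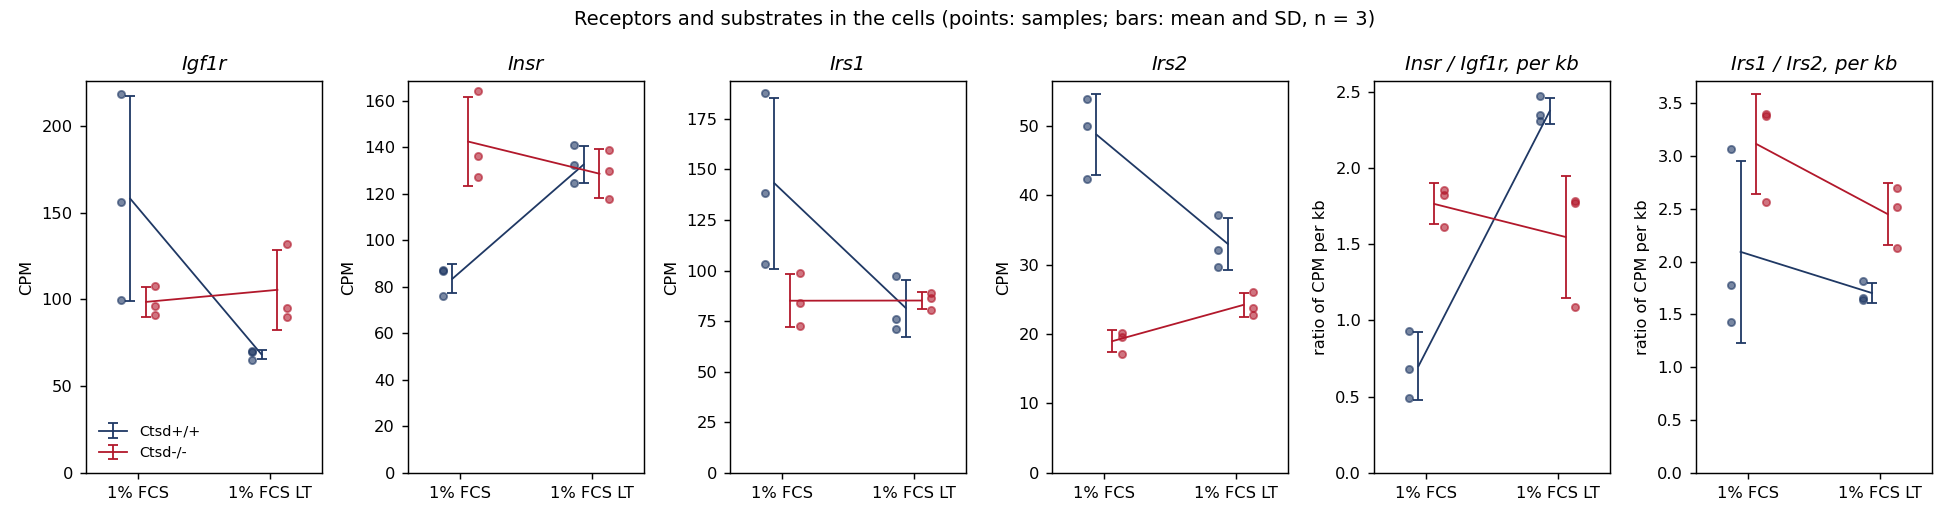
Levels in CPM of the receptors and substrates, and the ratios of Insr to Igf1r and of Irs1 to Irs2 per kilobase of exon, in the cells (points are samples, bars the mean and SD of 3). Between the times the Ctsd+/+ samples did not overlap for Igf1r, Insr, Irs1 or Irs2, and the Insr to Igf1r ratio went from under 1 to above 2.3, whereas the Ctsd-/- samples of the 2 times overlapped for all but Irs2.

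Igfbp3, the main carrier of IGFs in serum, separated the lines most. The Ctsd+/+ samples measured 10.64, 8.794 and 12.09 CPM in 1% FCS and 127.1, 283.6 and 331 CPM in 1% FCS LT. The Ctsd-/- samples had 0, 0 and 3 counts in 1% FCS and 1, 0 and 0 counts in 1% FCS LT. All 6 Ctsd-/- samples were at the limit of detection and all 6 Ctsd+/+ samples far above it. In 1% FCS 1105 counts stood against 3, a ratio of 394 (95% exact counting interval 134 to 1910), and in 1% FCS LT 28406 against 1, a ratio of 30400 (counting interval 5450 to 1200000). The adjusted p was 1.45e-06 and 1e-07 in edgeR's test. These values are a description, since Igfbp3 entered the test through Ctsd+/+ samples alone. In Ctsd+/+ cells Igfbp3 rose 23.5-fold with time (log2 fold change 4.55 ± 0.36 SE, adjusted p = 2.03e-06), and the later samples were all above the earlier ones. No time course could be read in the Ctsd-/- line, since both of its groups held 3 counts or fewer in all. In the tumors, where Cre is restricted to epithelium, Igfbp3 was present in both genotypes at 13.79 to 54.23 CPM.

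Igfbp4, a binding protein known to inhibit IGF action, changed in opposite directions in the lines. The Ctsd+/+ samples measured 1104, 696.7 and 518.1 CPM in 1% FCS and 65.96, 41 and 30.7 CPM in 1% FCS LT. The Ctsd-/- samples measured 66.36, 116.7 and 106.8 CPM and then 304.2, 375.7 and 226.5 CPM. The order of the 4 groups was Ctsd+/+ 1% FCS, Ctsd-/- 1% FCS LT, Ctsd-/- 1% FCS and Ctsd+/+ 1% FCS LT, and each group lay above the next, although the lowest sample of the third (66.36 CPM) and the highest of the fourth (65.96 CPM) almost touched and these 2 groups were not tested against each other. Against Ctsd+/+ cells the Ctsd-/- cells had a log2 fold change of -3.00 ± 0.36 at 10 days (SE, adjusted p = 4.02e-05) and of 2.72 ± 0.36 at 12 weeks (SE, adjusted p = 0.000115). Over time the value was -4.07 ± 0.38 in the Ctsd+/+ line (SE, adjusted p = 6.59e-06) and 1.65 ± 0.34 in the Ctsd-/- line (SE, adjusted p = 0.0326). The rise in the Ctsd-/- line lost its call in 6 of 12 fits that each left out 1 sample, with the log2 fold change between 1.43 and 1.82 over the 12. The samples whose absence ended it were Ctsd-/- samples 1, 2 and 3 in 1% FCS, Ctsd-/- samples 1 and 2 in 1% FCS LT and Ctsd+/+ sample 2 in 1% FCS LT. The interaction was 5.72 ± 0.51 (SE, adjusted p = 1.35e-05).

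Igfbp7 measured 223, 475 and 247.9 CPM in Ctsd+/+ cells in 1% FCS and 349.1, 345.5 and 716.2 CPM in 1% FCS LT. In Ctsd-/- cells it measured 48.45, 60.98 and 51.88 CPM and then 43.76, 37.23 and 38.65 CPM. Every Ctsd+/+ sample was above every Ctsd-/- sample at both times. The Ctsd-/- cells were 5.86-fold lower at 10 days (log2 fold change -2.55 ± 0.33 SE, adjusted p = 6.78e-05). At 12 weeks they were 11.8-fold lower (-3.56 ± 0.34 SE, adjusted p = 1.2e-05). Neither line changed with time by the rule (0.58 ± 0.31 in Ctsd+/+ cells and -0.43 ± 0.31 in Ctsd-/- cells, SE). In the Ctsd+/+ line the value was -0.06 within the 8 samples of 1 run code and 1.00, past the call, without sample 2 in 1% FCS.

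Igfbp2 and Igfbp5 were close to the limit of detection in most cells. Igfbp2 measured 20, 1.893 and 0.5234 CPM in Ctsd+/+ cells in 1% FCS (667, 62 and 20 counts), and no other group held more than 4 counts in all. Sample 1 was above the other 2 by more than 10 times. It carried a different run code from the other 2, so sample and code cannot be told apart within this group. Against Ctsd-/- cells in 1% FCS the ratio of summed counts was 400 (749 against 2, 95% exact counting interval 110 to 3310), and the fitted log2 fold change was -8.45 ± 1.71 (SE) with sample 1 and -5.82 ± 1.03 (SE) without it. Igfbp5 measured 9.925, 0.2748 and 0.1047 CPM in the same 3 samples (331, 9 and 4 counts), so that sample 1 held nearly all of it. Its call in 1% FCS (log2 fold change -6.82 ± 1.80 SE, adjusted p = 0.00838) rested on that sample and was -2.65 ± 1.19 (SE, adjusted p = 0.0945) without it. In 1% FCS LT Igfbp5 counts were 4, 20 and 46 in Ctsd+/+ cells and 1, 4 and 6 in Ctsd-/- cells, and the groups overlapped.

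Levels per kilobase of exon set the transcripts of different genes beside each other within a sample. On this scale the 5 binding proteins had a different makeup in each setting. The scale does not remove the shift with gene length between tumors and cells that is described below. In tumors the count used for Igfbp7 also held only 75.5% of its counts on both strands. Tumor and cell makeup were therefore not tested against each other. In tumors Igfbp5 held 72.4% to 90.9% of the summed level in controls and 75.9% to 90.8% in Ctsd-/- tumors. In cells it held at most 0.367%. Igfbp7 and Igfbp4 together made up nearly all of the sum in 3 of the cell groups, with Igfbp7 at 58.2% ± 15.5 in Ctsd+/+ cells in 1% FCS, 67.4% ± 4.67 in Ctsd-/- cells in 1% FCS and 33.1% ± 6.01 in Ctsd-/- cells in 1% FCS LT (SD, n = 3 each). In the remaining group, Ctsd+/+ cells in 1% FCS LT, Igfbp7 held 80.6% ± 5.68, Igfbp3 16.8% ± 6.05 and Igfbp4 2.58% ± 1.68 (SD, n = 3). The summed level was 326.5 to 554.6 CPM per kilobase in Ctsd+/+ cells and 55.1 to 76.89 in Ctsd-/- cells in 1% FCS, and 344.4 to 705.3 against 83.29 to 115.9 in 1% FCS LT. The ranges of the lines did not overlap at either time.

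**Figure D5:**
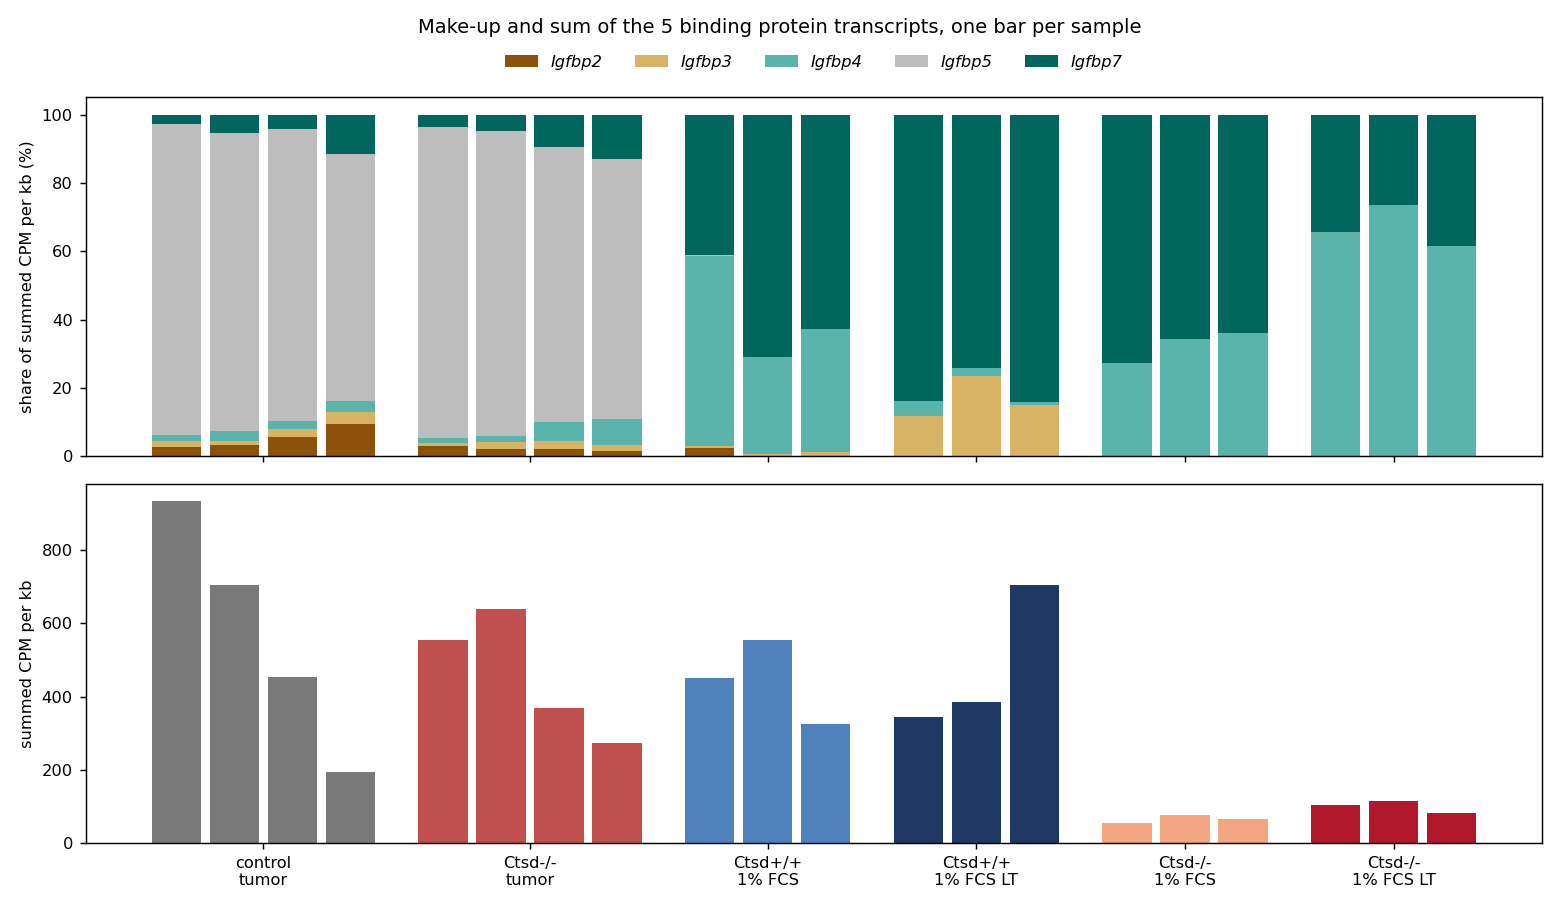
Makeup (upper panel, percent of the sum) and sum (lower panel, CPM per kilobase of exon) of the 5 binding protein transcripts, 1 bar per sample. Igfbp5 fills 72.4% or more of every tumor bar, Igfbp3 is visible among the cells in the Ctsd+/+ samples in 1% FCS LT, and the Ctsd-/- cell bars in the lower panel end at 115.9 or below.

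Tumor and cell levels were not tested against each other, because the libraries and the strand setting differed and because the shift between them followed gene length. Among protein-coding genes above 10 CPM in cells, the median log2 ratio of tumors over cells was 0.97 in the decile of genes with the shortest exon length and -1.33 in the decile with the longest. The ratio was 10.8 for Igfbp5, 3.75 for Igfbp2 and 3.46 for Igf1, and -5.20 for Igf1r, which lies in the longest decile. For the other 6 genes it ran from -3.28 (Irs1, undercounted in tumors) to -1.13 (Igfbp3).

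Beside these genes, 56 of the 62 other pathway genes were tested in tumors and 53 in cells. In tumors 14 were called (12 higher, 2 lower), which is 25.0% of those tested against 16.7% of all genes. The only one of these without overlap was Irs3, an insulin receptor substrate of rodent adipose tissue, at 0.8952 to 2.46 CPM in controls and 3.505 to 38.68 CPM in Ctsd-/- tumors (log2 fold change 3.11 ± 0.67 SE, edgeR, unadjusted p = 0.00087, adjusted p = 0.292). Igf2, the second IGF ligand, was under 1 CPM in controls and reached 4.239 and 2.406 CPM in Ctsd-/- tumors 3 and 4 (2.25 ± 1.10 SE, edgeR, unadjusted p = 0.0672). The median log2 fold change of the list was 0.25 in tumors.

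In cells 11 of the 53 were called in 1% FCS (2 higher, 9 lower), 10 in 1% FCS LT (6 higher, 4 lower), 2 over time in Ctsd-/- cells, both higher, 10 over time in Ctsd+/+ cells (1 higher, 9 lower) and 9 in the interaction (8 positive, 1 negative). These are 20.8%, 18.9%, 3.77%, 18.9% and 17.0% of those tested, against 25.0%, 19.4%, 1.48%, 23.4% and 19.1% of all genes, so that in 4 of the 5 comparisons the share was below that of all genes. The list medians lay between -0.08 and 0.06 on the log2 scale in all 5. Of the 5 proteases that cleave binding proteins and their inhibitors, 4 were called lower in Ctsd-/- cells in 1% FCS and 4 lower over time in Ctsd+/+ cells (14.6% and 12.3% of all genes). In 1% FCS LT 1 was called higher and 1 lower, over time in Ctsd-/- cells 0, in the interaction 3 and in tumors 1. Pappa, the protease that cleaves IGFBP4, measured 48.28, 37.31 and 19.13 CPM in Ctsd+/+ cells in 1% FCS, 1.724 to 3.972 CPM in 1% FCS LT and at most 0.292 CPM in Ctsd-/- cells. It was lower in Ctsd-/- cells at both times (log2 fold changes -7.67 ± 0.60 and -4.25 ± 0.57 SE, adjusted p = 1.62e-06 and 0.00014). These values are a description, since Pappa entered the test through the Ctsd+/+ samples. Pappa thus had the same 1% FCS group on top as Igfbp4, and its log2 fold change over time in Ctsd-/- cells was -0.19 ± 0.75 (SE).

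Stc2, an inhibitor of these proteases, measured 119.3, 16.55 and 12.98 CPM in Ctsd+/+ cells in 1% FCS and 1.508 to 3.017 CPM in Ctsd-/- cells (-4.39 ± 1.06 SE, adjusted p = 0.00512), with sample 1 again far above the other 2. Its relative Stc1 was low throughout the cells. It was higher in Ctsd-/- cells in 1% FCS LT (1.088 to 1.596 CPM against 0 to 0.05328 CPM, adjusted p = 0.00017) and had the largest called interaction of the list (7.39 ± 0.93 SE, adjusted p = 0.000142). Pappa2, a related protease, had an interaction of 4.95 ± 1.42 (SE, adjusted p = 0.0207). It was low throughout the cells, at 0.4449 to 4.048 CPM in Ctsd+/+ cells in 1% FCS and at or under 0.7901 CPM in all other cell samples. In 1% FCS LT its groups overlapped (0.46 ± 0.95 SE, adjusted p = 0.733).

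Igf2 reached 12.56 CPM in Ctsd+/+ sample 1 in 1% FCS and stayed under 1 CPM in the other 11 cell samples. Its call over time in Ctsd+/+ cells (-3.91 ± 1.36 SE, adjusted p = 0.0328) came from groups that overlapped. Igf2r, which clears IGF2, lay between 363 and 718.7 CPM in all 12 cell samples and was not called in any of the comparisons. Igfbp6 was at 7.599 to 65.03 CPM in tumors (0.73 ± 0.60 SE, adjusted p = 0.699) and at or under 0.2094 CPM in cells, where it was not tested.

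Of the 3 mRNA-binding proteins first described on Igf2 transcripts, Igf2bp1 was called between the lines at both times, Igf2bp3 in 1% FCS and Igf2bp2 at neither. Igf2bp1 lay between 7.619 and 9.903 CPM in Ctsd-/- cells and at or under 0.2355 CPM in Ctsd+/+ cells (log2 fold changes 5.80 ± 0.34 and 6.66 ± 0.36 SE, adjusted p = 2.06e-07 and 2.63e-07). Igf2bp3 lay between 8.034 and 11.15 CPM in Ctsd+/+ cells in 1% FCS and at or under 0.4056 CPM in the other 9 samples (-6.83 ± 0.61 SE between genotypes in 1% FCS, adjusted p = 4.59e-06). In 1% FCS LT its groups overlapped (-1.30 ± 0.62 SE, adjusted p = 0.119). The values of both genes are a description, since Igf2bp1 entered the test through Ctsd-/- samples alone and Igf2bp3 through Ctsd+/+ samples alone. Foxo6, a transcription factor that Akt restrains, was at 20.79 to 29.76 CPM in Ctsd+/+ cells in 1% FCS LT and at most 3.899 CPM elsewhere (-5.14 ± 0.34 SE between genotypes in 1% FCS LT, adjusted p = 9.94e-07, and -5.13 ± 0.43 SE in 1% FCS, adjusted p = 2.75e-06). It rose over time in both lines, by 3.11 ± 0.46 in Ctsd-/- cells (SE, adjusted p = 0.00855) and by 3.11 ± 0.31 in Ctsd+/+ cells (SE, adjusted p = 1.01e-05). Sh2b2, an adaptor of the insulin receptor, rose in Ctsd-/- cells by 1.32 ± 0.28 (SE, adjusted p = 0.0353). Pik3cd, a catalytic subunit of PI3K, fell over time in Ctsd+/+ cells by 3.68 ± 0.27 (SE, adjusted p = 1.31e-06).

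The genes most like the members across samples were found by Pearson correlation of log2 CPM, as a description, with the samples sharing groups and run codes. Over the 12 cell samples Igf1 was most like Crim1 (r = 0.985) and Arsj (0.983), Igf1r most like Pacs2 (0.967) and P4ha3 (0.961), and Igfbp4 most like Cnpy4 (0.985) and Dse (0.973). Over the 8 tumors Igf1 was most like Unc45b (0.996) and Plin4 (0.994), the latter one of the adipocyte markers. Igf1r was most like Syne1 (0.995) and Urb1 (0.994), Insr most like Fam53b (0.989) and Tcf7l1 (0.981), and Igfbp2 most like Gm13033 (0.987) and Slc25a13 (0.986).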

How the data were processed

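RNA-seq of 8 mouse tumors and 12 cell samples was read from the deposited per-sample gene counts, which the authors made by trimming with Trimmomatic and counting during alignment with STAR to mm10 (GRCm38). The STAR version and annotation release are not given in the sources used here, and gene names and lengths were taken from GENCODE M21 (45143 of 45706 identifiers matched). The count column regardless of strand was used for tumors and the opposite-strand column for cells. The 4 summary lines of each file were left out of library sizes; 3.36% to 4.03% (tumors) and 4.07% to 5.32% (cells) of reads were listed as unmapped. Counting error sets the precision of low values, and intervals and floors (3 counts) cover counting error only.

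Tumors and cells were fitted separately with edgeR 4.0.16 (R 4.3.3; filterByExpr with a minimum count of 10, TMM scaling, glmQLFit and glmQLFTest, Benjamini-Hochberg adjustment over all 18617 and 15178 genes). The SE of a log2 fold change is its size divided by the square root of the F statistic. CPM values use TMM library sizes, log2 CPM a prior count of 2. Thresholds follow the study: unadjusted p under 0.1 in tumors, adjusted p under 0.05 with absolute log2 fold change above 1 in cells. The study describes the 3 cell samples of a group as independent experiments; each genotype is 1 line, so p-values measure the spread between experiments on that line. Fitted fold changes of genes near 0 counts depend on the prior count. The scripts were tested on simulated data. DESeq2 1.42.0, limma 3.58.1 (voom), other filters, covariates, run code and leaving out each sample were tried as alternatives. The 10 genes, the pathway and marker lists and the tests were chosen with earlier results of these data known. Genes of the pathway list were named where they were among the 3 largest called changes without overlap in a comparison (no overlap condition for the interaction), with Igf2, Igf2r, Igfbp6, Pappa and Stc2 always named, and the 2 most correlated genes of each member called in the interaction or in tumors. Those of Irs2 are not reported here. Upstream sequences are from RefSeq (GRCm38.p6); 9 of 10 genes matched.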

Additional observations from a re-analysis of the deposited data

Results flagged for a closer look

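The effect of time in culture differed between the lines for 6 of the 10 genes at an adjusted p under 0.05 (edgeR's quasi-likelihood test of the interaction, Ctsd-/- minus Ctsd+/+). The log2 values were 10.08 for Igf1, 5.72 for Igfbp4, 1.31 for Igf1r, 0.91 for Irs2, 0.81 for Irs1 and -0.82 for Insr. For 5 of these genes, all but Igf1r, the Ctsd+/+ samples in 1% FCS did not overlap with any other cell group, and in these samples the luminal markers were low and the collagen transcripts high. Igf1 entered the test only through those samples. The part of cell makeup was not tested.

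In 1 of 20 groups of tumors examined a single sample stood far from the rest of its group. Irs2 was 3.069 CPM in control tumor 4, against 5.959 to 6.117 CPM in the other 3 controls. That tumor also held the highest skeletal muscle marker sum (908 CPM), whose part in the value was not tested. The threshold used is one that chance would pass in about 1 of 20 independent groups, and these groups share the same 8 tumors.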

How the results depend on the processing

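Over the fitted values of the 10 genes in 6 comparisons, 1154 values under an alternative kept their direction and side of the threshold, 36 lost the call, 20 gained it and 27 turned. Unless a value below shows it, the cause was not tested. In tumors, 2 of the 10 genes were called at an unadjusted p under 0.05, 0 at an adjusted p under 0.05 (pathway list 0), 3 with fibroblast markers as covariate and 0 with adipocyte markers (pathway list 3). The adipocyte covariate turned Igf1 (-0.31), Igfbp3 (0.20), Igfbp4 (-0.51), Igfbp5 (0.59) and Igfbp7 (-0.29), and the fibroblast covariate Igfbp4 (-0.13) and Igfbp7 (-0.029). Requiring 10 counts in every sample, which removes genes near 0 in 1 group, left 6 of the 10 genes and 45 of the pathway list tested. Of the 6, 3 were called in 1% FCS (2165 of all 12171 genes) and 2 over time in Ctsd+/+ cells (2099 of all 12171). Of the 45, 5 and 6 were called between genotypes in 1% FCS and 1% FCS LT (all genes 2165 and 1673). Over time in Ctsd-/- and Ctsd+/+ cells 1 and 4 of the 45 were called (all genes 117 and 2099). With no minimum fold change, which admits smaller changes, the 10 genes gave 5 calls in 1% FCS LT, 8 over time in Ctsd+/+ cells and 6 in the interaction, and the pathway list gave 25, 25, 33 and 18 in 1% FCS, 1% FCS LT, over time in Ctsd+/+ cells and in the interaction. Fitting the 6 samples compared alone left 1 pathway gene over time in Ctsd-/- cells. Irs1 over time in Ctsd-/- cells was -0.004 by DESeq2 and with its size factors. Over time in Ctsd+/+ cells Igfbp7 was -0.056 within 1 run code, and Igfbp5 was 0.52 with run code as a term.

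Same-numbered tumors did not deviate together (correlations -0.303 to -0.00755). In cells the mean same-number correlation ran from -0.134 to 0.254 over the 6 pairs of groups. It was highest between the genotypes in 1% FCS (0.09997 to 0.362), where the mean for other numbers was -0.126. All same-number values were also positive between the times in Ctsd-/- cells (0.07658 to 0.192). They were so too between Ctsd+/+ cells in 1% FCS and Ctsd-/- cells in 1% FCS LT (0.06802 to 0.248). The main fits did not pair the samples, since in no pair of groups was every value above 0.1. In 1% FCS this was missed narrowly, so a pairing there cannot be dismissed. With a replicate block 2 of the 10 genes were called in tumors, and 7, 4, 1, 5 and 3 in the cell comparisons.

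Leaving out each sample in turn, the 10 genes gave 2 to 5 calls in tumors, 6 to 7 in 1% FCS, 3 to 4 in 1% FCS LT, 0 to 1 over time in Ctsd-/- cells, 4 to 7 over time in Ctsd+/+ cells and 3 to 4 in the interaction. The pathway list gave 9 to 19, 10 to 12, 9 to 10, 1 to 2, 7 to 14 and 7 to 12. Values that turned ranged in tumors from -0.55 to 0.17 (Irs1) and -0.64 to 0.048 (Igfbp5), and in 1% FCS LT from -0.10 to 0.022 (Insr) and -0.023 to 0.21 (Irs1). Over time in Ctsd-/- cells they ranged from -0.094 to 0.20 (Igf1r), -0.10 to 0.12 (Irs1), -3.24 to 0.0 (Igfbp2) and -3.18 to 1.81 (Igfbp3). Igfbp5 ranged from -3.40 to 1.68 over time in Ctsd+/+ cells and from -0.046 to 5.03 in the interaction, and Ctsd+/+ sample 1 in 1% FCS gave the turned values. Depth limits Igf1, Igfbp2, Igfbp3 and Igfbp5 in cells, where whole groups held 4 counts or fewer.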
